A study of Arabidopsis thaliana with 30 samples.

Results

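The genes described here are the photosynthesis genes that Arabidopsis thaliana carries on its plastid genome, 43 of the 13356 distinct genes to which the array annotation gave a probe set of their own. The rule that chose them used names and no measured value, but it was set with earlier results of these data known. It took every single-gene chloroplast probe set whose symbol began with psa, psb, pet or ndh, or was atpA, atpB, atpE, atpF, atpH, atpI or rbcL. Each of the 43 genes had 1 such probe set, so the rule of keeping the brightest removed nothing. Of the 44 plastid photosynthesis genes in the RefSeq annotation, ndhB was not used because its probe set listed both copies of the gene. The members were 5 genes of photosystem I, 15 of photosystem II, 6 of the cytochrome b6f complex, 6 of ATP synthase, 10 of the NDH complex, and rbcL. The series compared rosette leaves of the wild type Col-0 with leaves of cat2-1, called cat2 here, a mutant of the catalase that removes photorespiratory hydrogen peroxide in leaf peroxisomes. For their first 5 weeks all plants were kept at 3000 ppm CO2 with 8 h light and 16 h dark, and they were sampled there (high CO2) or after transfer to air at 400 ppm. Transferred plants spent 2 or 4 days in air, keeping the short days (SD2, SD4) or receiving 16 h of light, the long days (LD2, LD4). All samples were taken 7 h into the light, and each of the 3 arrays of each of the 10 groups carried RNA pooled from 2 leaves of different plants. No group had long days at high CO2, so a comparison of LD2 or LD4 with high CO2 changes the air and the day length together. A treatment label of the Col-0 high CO2 arrays gave a lower figure than the protocol, whose 3000 ppm is used here.

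Plastid genes are remnants of a bacterial genome and most are transcribed in clusters as polycistronic RNAs that are then cut, trimmed and edited. Their products form the cores of the thylakoid complexes, to which the nucleus adds further subunits. Photosystem II oxidises water, the cytochrome b6f complex passes electrons on, photosystem I reduces ferredoxin, ATP synthase uses the proton gradient, the NDH complex returns electrons to plastoquinone in cyclic flow, and Rubisco fixes CO2. Transcription uses a plastid-encoded RNA polymerase of bacterial type, whose core comes from the rpo genes, together with phage-type polymerases imported from the nucleus. Plastid mRNAs mostly lack the stable poly(A) tails that standard array labelling primes on, so that a probe set reads the part of each transcript pool that was labelled, and the share labelled is unknown here.

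The signals were log2 values of 1 probe set per gene, and a level on one probe set cannot be compared with a level on another. Bright and dim therefore describe probe sets below, not the amount of a transcript. RNA from whole leaves does not separate fewer cells of a type from less RNA per cell. Few marker genes had a probe set: 2 of 9 listed for mesophyll (RCA, median 14.09, and SBPASE, median 12.86), 1 of 2 for root (PYK10, median 3.72), 1 of 4 for guard cells (FAMA, median 6.93) and 1 of 6 for senescing leaves (SAG29, median 4.83). These medians belong to different probe sets and are not compared, so the leaf label was not tested. Those listed for epidermis, phloem and xylem had 0 probe sets of their own. Array medians over all probe sets lay between 6.16 and 6.31. The third Col-0 LD4 array stood apart: it held the lowest value of the 30 arrays for 16 of the 43 members, and also the lowest signal of the 25S ribosomal RNA control, 5.50. That array also had the lowest BioB control signal, 7.35, and the largest 3' minus 5' difference of the actin control, 2.50. The 25S control had group means from 7.27 to 7.97 in the 4 groups of cat2 in air and from 6.38 to 6.72 in the other 6 groups. The part of either in the results below was not tested, but fits without that array and fits with the 25S signal as a covariate are given where a call changed.

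Plastid photosynthesis genes were mostly higher in short-day air than in long-day air. Of the 43 members, 34 had their highest group mean in one of the 4 short-day air groups and 32 their lowest in one of the 4 long-day air groups, and 18 of these lowest means were in cat2 LD2. High CO2 held the highest mean of 8 members and the lowest of 9. In the 21 comparisons of a pair of groups, the largest difference of any member was 1.34 on the log2 scale, and 21 members, or 48.8%, were called in at least 1 of them, beside 52.9% of all probe sets, so that the share was near the background. A call is an adjusted p below 0.05 in limma, with Benjamini-Hochberg adjustment over 22746 probe sets, and every difference below is given with its standard error from that fit. The 21 members that were called gave 48 calls, and in 47 of them the 3 arrays of one group did not overlap the 3 of the other, as in 95.6% of the calls of all probe sets. Fits restricted to the arrays of the groups compared, which leave few degrees of freedom, kept 22 of the 48 calls, and 16 held without every single array in turn.

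**Figure D1:**
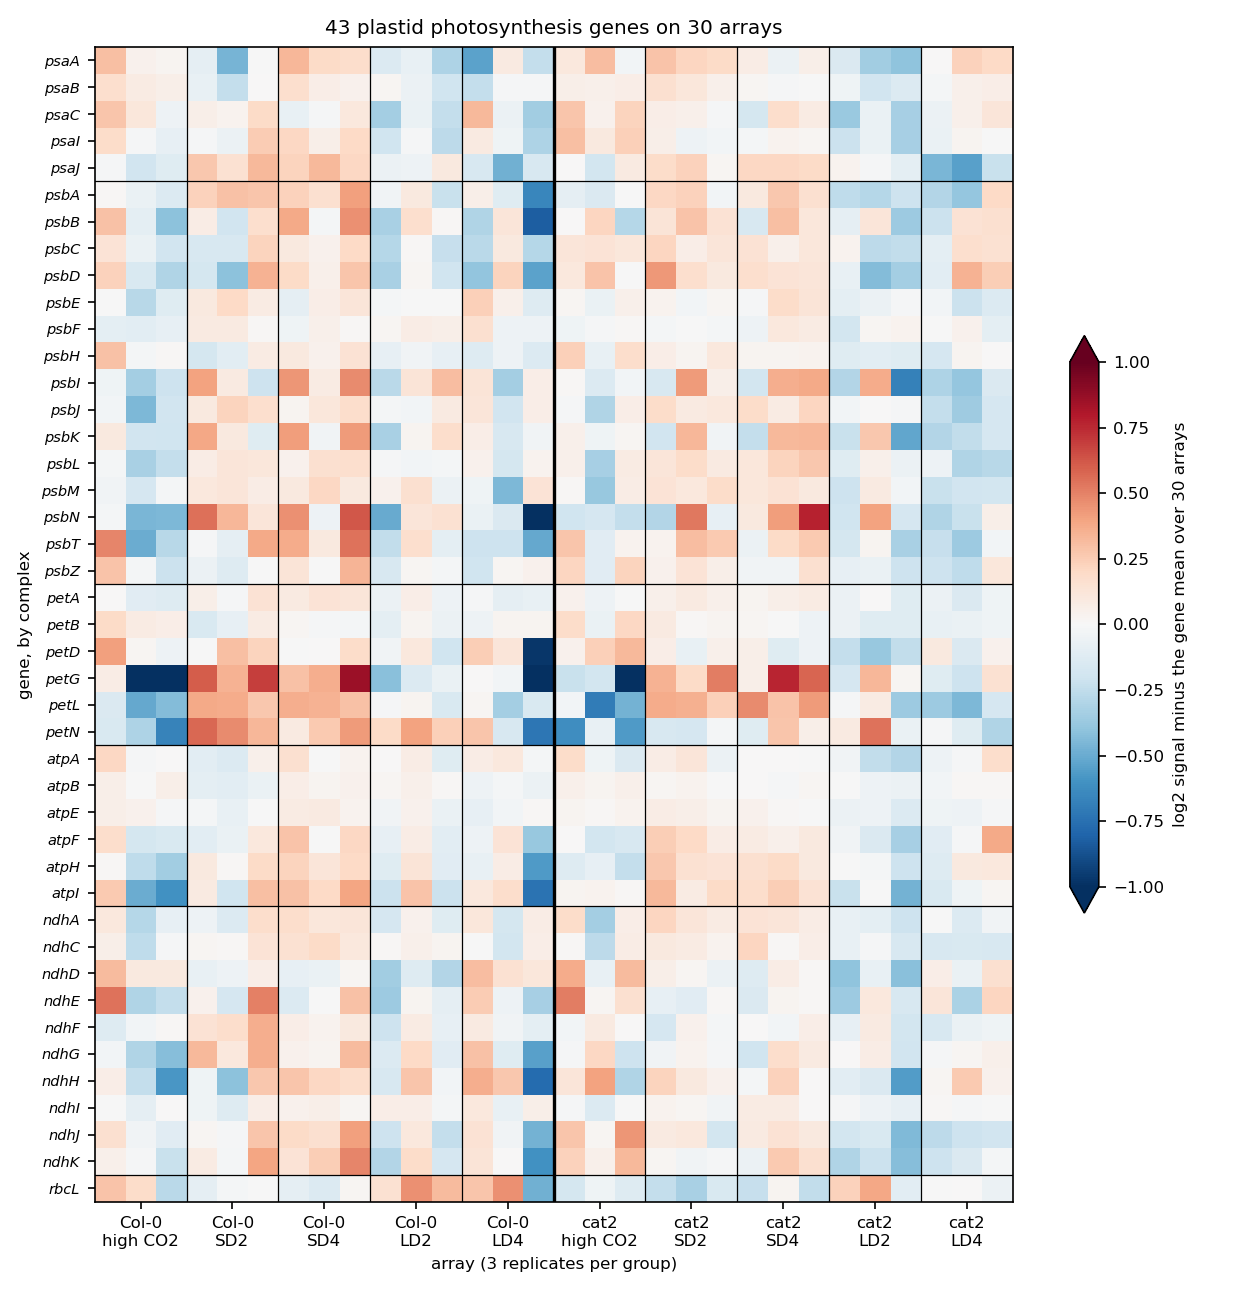
Heat map of the 43 members (rows, by complex) on the 30 arrays (columns, by group), with colour for the log2 signal minus the member's mean over all arrays. Short-day air columns are mostly above the member means, cat2 LD2 columns are mostly below, and the third Col-0 LD4 column is the lowest for 16 members.

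The cytochrome b6f complex held the largest differences, and they were in its small subunits. petL encodes a small subunit that stabilises the complex. In Col-0, petL read 11.79, 11.43 and 11.50 at high CO2, 12.32, 12.31 and 12.21 at SD2, 12.30, 12.28 and 12.23 at SD4, 11.93, 11.97 and 11.78 at LD2, and 11.96, 11.60 and 11.78 at LD4. In cat2, petL read 11.91, 11.24 and 11.47 at high CO2, 12.31, 12.29 and 12.17 at SD2, 12.41, 12.22 and 12.36 at SD4, 11.92, 12.02 and 11.58 at LD2, and 11.57, 11.49 and 11.77 at LD4. All 12 short-day air arrays lay above all 18 other arrays, and the long-day values overlapped those at high CO2. Compared with high CO2, petL rose in Col-0 by 0.70 ± 0.14 (adjusted p = 0.00118) at SD2 and by 0.70 ± 0.14 (adjusted p = 0.00554) at SD4. In cat2 the rise was 0.72 ± 0.14 (adjusted p = 0.000492) at SD2 and 0.79 ± 0.14 (adjusted p = 0.000294) at SD4. The comparisons within a genotype share their 3 high CO2 arrays and so are not independent of each other. All 4 of these calls held in each of the 6 fits that left out 1 array of the groups compared. In long days relative to short days petL was lower at day 4, with a difference of -0.49 ± 0.14 (adjusted p = 0.0149) in Col-0 and -0.72 ± 0.14 (adjusted p = 0.000586) in cat2, and at day 2, with a difference of -0.42 ± 0.14 (adjusted p = 0.0345) in cat2. The cat2 day 4 call held without any single array of the pair, whereas the Col-0 call was lost without replicate 2 of Col-0 LD4, where the difference was -0.40, and the cat2 day 2 call without replicate 3 of cat2 LD2 and replicates 1 and 2 of cat2 SD2, left out in turn, where the difference was -0.29 to -0.40. The cat2 day 2 call was also lost with the 25S covariate (-0.39) and with arrays centred on their medians (-0.40). In Col-0 at day 2 the difference was -0.39 ± 0.14 (adjusted p = 0.0653), which was not a call. In none of the tests of a difference between genotypes was petL called, and the adjusted p was 0.971 for the air response at SD2 and 0.801 for the day length response at day 4.

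petG encodes another small subunit, which is essential for the complex in tobacco. In Col-0, petG read 8.38, 7.30 and 6.88 at high CO2, 8.91, 8.66 and 9.00 at SD2, 8.60, 8.67 and 9.17 at SD4, 7.89, 8.17 and 8.24 at LD2, and 8.32, 8.28 and 7.29 at LD4. In cat2, petG read 8.09, 8.13 and 7.12 at high CO2, 8.66, 8.50 and 8.82 at SD2, 8.37, 9.08 and 8.89 at SD4, 8.14, 8.64 and 8.33 at LD2, and 8.19, 8.10 and 8.46 at LD4. The high CO2 arrays spread widely in both genotypes, and in Col-0 the first of them lay 1 unit or more above the other 2, yet below all 6 short-day air arrays. petG rose by 1.34 ± 0.31 (adjusted p = 0.00427) in Col-0 at SD2, by 1.29 ± 0.31 (adjusted p = 0.0241) in Col-0 at SD4 and by 1.00 ± 0.31 (adjusted p = 0.0371) in cat2 at SD4. The SD2 call held in 6 of 6 fits without 1 array. The Col-0 SD4 call was lost without replicates 2 and 3 of Col-0 SD4 and replicates 2 and 3 of Col-0 high CO2, left out in turn, where the difference was 0.97 to 1.36, and the cat2 SD4 call without replicates 2 and 3 of cat2 SD4 and replicate 3 of cat2 high CO2, left out in turn, where the difference was 0.67 to 0.94, and with the 25S covariate (0.79). In cat2 at SD2 the difference, 0.88 ± 0.31 (adjusted p = 0.0524), was not a call, and the genotypes were not shown to differ in this response (interaction -0.46 ± 0.44, adjusted p = 0.617).

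petN encodes the third small subunit, also essential in tobacco. In Col-0, petN read 7.77, 7.61 and 7.25 at high CO2, 8.50, 8.39 and 8.25 at SD2, 8.01, 8.18 and 8.35 at SD4, 8.11, 8.32 and 8.16 at LD2, and 8.20, 7.76 and 7.20 at LD4. In cat2, petN read 7.30, 7.84 and 7.36 at high CO2, 7.76, 7.76 and 7.91 at SD2, 7.80, 8.20 and 7.98 at SD4, 8.01, 8.46 and 7.86 at LD2, and 7.91, 7.80 and 7.62 at LD4. Its Col-0 SD2 and LD2 arrays lay above all high CO2 arrays, and its Col-0 LD4 arrays spanned 1 log2 unit. petN rose in Col-0 by 0.84 ± 0.19 (adjusted p = 0.00392) at SD2 and by 0.65 ± 0.19 (adjusted p = 0.0301) at LD2, and in cat2 by 0.61 ± 0.19 (adjusted p = 0.0278) at LD2. It was the 1 member called higher after 2 days in long-day air, in each genotype. The SD2 call held without any single array, the Col-0 LD2 call was lost without replicates 1, 2 and 3 of Col-0 LD2 and replicates 2 and 3 of Col-0 high CO2, left out in turn, where the difference was 0.51 to 0.70, and the cat2 LD2 call without replicate 2 of cat2 LD2 and replicates 1 and 3 of cat2 high CO2, left out in turn, where the difference was 0.43 to 0.54, and with the 25S covariate (0.58). At SD2 petN was lower in cat2 than in Col-0, with a difference of -0.57 ± 0.19 (adjusted p = 0.0484), without overlap. That call was lost in each of the 6 fits without 1 array, with differences from -0.64 to -0.52, with the 25S covariate (-0.62) and after further quantile normalization (-0.58).

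Among the larger subunits only petB was called, in 1 comparison. petB encodes cytochrome b6 and had the brightest of the 6 probe sets, and petD encodes subunit IV and had the dimmest. In Col-0, petB read 13.71, 13.60 and 13.59 at high CO2, 13.37, 13.43 and 13.60 at SD2, 13.54, 13.51 and 13.50 at SD4, 13.42, 13.55 and 13.46 at LD2, and 13.47, 13.54 and 13.55 at LD4. In cat2, petB read 13.70, 13.45 and 13.73 at high CO2, 13.61, 13.53 and 13.54 at SD2, 13.54, 13.51 and 13.47 at SD4, 13.46, 13.40 and 13.40 at LD2, and 13.44, 13.45 and 13.47 at LD4. Each array in air lay below the mean of its own genotype at high CO2, but the groups overlapped in part. petB was called lower in cat2 at LD2, with a difference of -0.21 ± 0.07 (adjusted p = 0.0346), the one call of the 48 in which the groups overlapped, since the second high CO2 array lay below the first LD2 array. That call was lost without replicates 2 and 3 of cat2 LD2 and replicates 1 and 3 of cat2 high CO2, left out in turn, where the difference was -0.16 to -0.20, with the 25S covariate (-0.21), with median centring (-0.16) and after further quantile normalization (-0.13). In Col-0, petD read 6.05, 5.66 and 5.59 at high CO2, 5.63, 5.93 and 5.86 at SD2, 5.63, 5.64 and 5.82 at SD4, 5.60, 5.74 and 5.44 at LD2, and 5.88, 5.75 and 4.66 at LD4. In cat2, petD read 5.68, 5.87 and 5.96 at high CO2, 5.70, 5.56 and 5.69 at SD2, 5.69, 5.51 and 5.59 at SD4, 5.40, 5.25 and 5.39 at LD2, and 5.73, 5.49 and 5.68 at LD4. petD was called in no comparison, and its lowest array was the third of Col-0 LD4. In cat2 its mean at LD2 differed by -0.49 from that at high CO2, and the arrays did not overlap. petA, which encodes cytochrome f, was called in none either, with group means from 12.56 to 12.76.

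**Figure D2:**
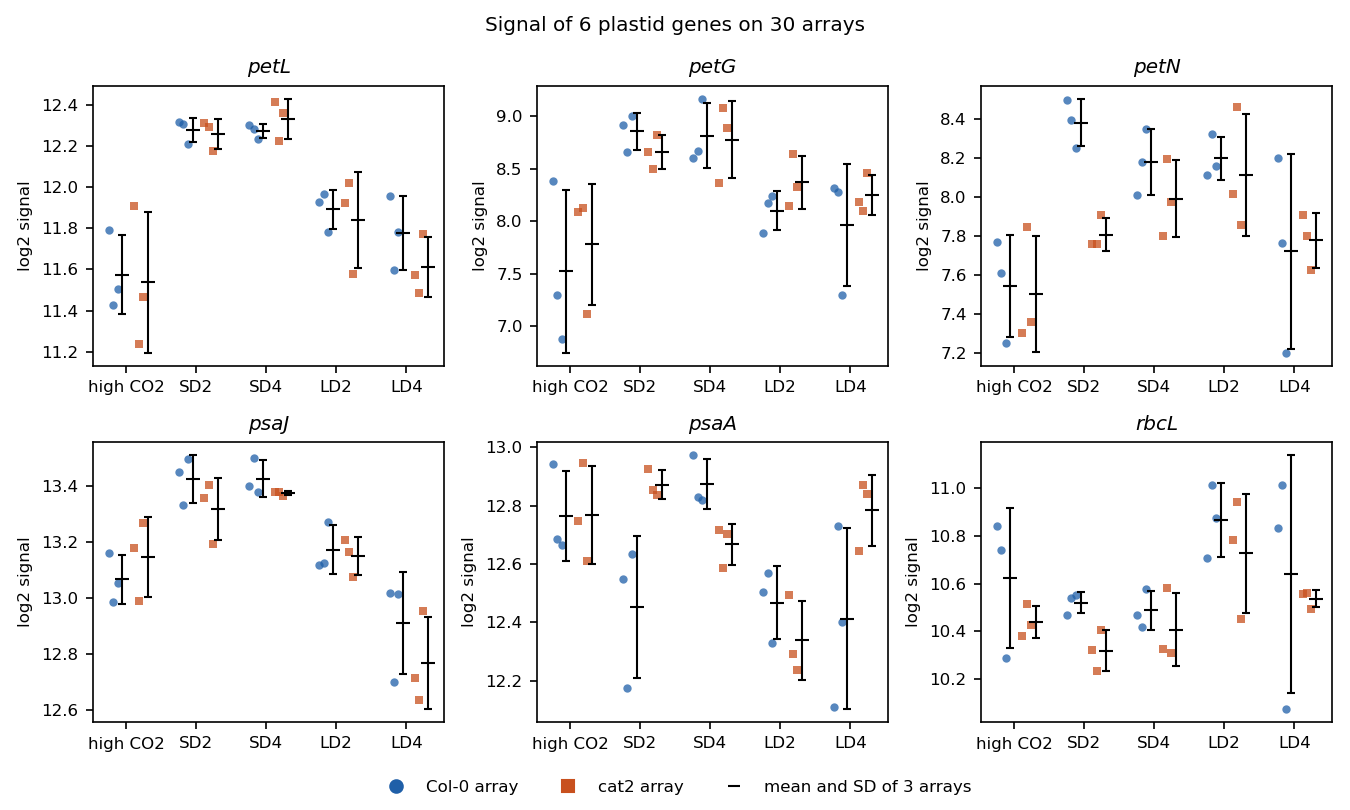
Log2 signal of petL, petG, petN, psaJ, psaA and rbcL on each of the 30 arrays (points) by group, with the group mean and SD (n = 3 arrays each). The 12 short-day air arrays of petL lie above the 18 others, the Col-0 high CO2 arrays of petG run from 6.88 to 8.38, and rbcL is highest at LD2.

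The 5 photosystem I genes were each called at least once, beside 52.9% of all probe sets. psaJ encodes a small membrane subunit beside the docking site of plastocyanin. In Col-0, psaJ read 13.16, 12.99 and 13.05 at high CO2, 13.45, 13.33 and 13.50 at SD2, 13.40, 13.50 and 13.38 at SD4, 13.12, 13.13 and 13.27 at LD2, and 13.02, 12.70 and 13.01 at LD4. In cat2, psaJ read 13.18, 12.99 and 13.27 at high CO2, 13.36, 13.41 and 13.19 at SD2, 13.38, 13.38 and 13.37 at SD4, 13.21, 13.16 and 13.08 at LD2, and 12.72, 12.64 and 12.95 at LD4. Short-day air arrays were mostly the highest, the cat2 LD4 arrays lay below all cat2 high CO2 arrays, and the Col-0 LD4 arrays overlapped those of Col-0 high CO2. psaJ rose in Col-0 by 0.36 ± 0.09 (adjusted p = 0.00926) at SD2 and by 0.36 ± 0.09 (adjusted p = 0.0389) at SD4, and fell in cat2, with a difference of -0.38 ± 0.09 (adjusted p = 0.00779) at LD4. At day 4 it was lower in long than in short days, with a difference of -0.52 ± 0.09 (adjusted p = 0.000488) in Col-0 and -0.61 ± 0.09 (adjusted p = 6.31e-05) in cat2, and both calls held in 6 of 6 fits without 1 array, as did those for Col-0 SD2 and cat2 LD4. The Col-0 SD4 call was lost without each of the 6 arrays in turn (0.32 to 0.41) and after further quantile normalization (0.31). Between LD2 and LD4 psaJ fell in cat2, with a difference of -0.38 ± 0.09 (adjusted p = 0.0383). psaJ lost this call without replicates 1, 2 and 3 of cat2 LD2 and replicates 1 and 2 of cat2 LD4, left out in turn, where the difference was -0.31 to -0.42, and with the 25S covariate (-0.39).

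psaA and psaB encode the paired core proteins that hold the reaction centre chlorophylls, and their transcripts lie side by side. In Col-0, psaA read 12.94, 12.68 and 12.67 at high CO2, 12.55, 12.18 and 12.64 at SD2, 12.97, 12.83 and 12.82 at SD4, 12.50, 12.57 and 12.33 at LD2, and 12.11, 12.73 and 12.40 at LD4. In cat2, psaA read 12.75, 12.94 and 12.61 at high CO2, 12.93, 12.85 and 12.84 at SD2, 12.71, 12.59 and 12.70 at SD4, 12.49, 12.29 and 12.23 at LD2, and 12.64, 12.87 and 12.84 at LD4. At SD2 the Col-0 arrays lay below all 3 Col-0 high CO2 arrays while the cat2 arrays overlapped those of cat2 high CO2, and at LD2 the arrays of both genotypes lay below those of their own high CO2 group. psaA was lower in long than in short days in cat2 at day 2, with a difference of -0.53 ± 0.13 (adjusted p = 0.00606), a call kept in 6 of 6 fits. The same held in Col-0 at day 4, with a difference of -0.46 ± 0.13 (adjusted p = 0.0189). psaA lost this call without replicates 1 and 3 of Col-0 LD4 and replicate 1 of Col-0 SD4, left out in turn, where the difference was -0.31 to -0.46. It was lower than at high CO2 in cat2 at LD2, with a difference of -0.43 ± 0.13 (adjusted p = 0.0228). psaA lost this call without replicates 2 and 3 of cat2 LD2 and replicates 1 and 2 of cat2 high CO2, left out in turn, where the difference was -0.34 to -0.44. At SD2 psaA was higher in cat2 than in Col-0 by 0.42 ± 0.13 (adjusted p = 0.0346). psaA lost this call without replicate 2 of Col-0 SD2 and replicates 1, 2 and 3 of cat2 SD2, left out in turn, where the difference was 0.28 to 0.44, and with the 25S covariate (0.39). Its response to day length differed between the genotypes by -0.55 ± 0.19 at day 2 and 0.58 ± 0.19 at day 4, both short of a call, with adjusted p of 0.0728 and 0.212. In Col-0, psaB read 13.93, 13.84 and 13.82 at high CO2, 13.68, 13.52 and 13.77 at SD2, 13.93, 13.83 and 13.80 at SD4, 13.78, 13.70 and 13.56 at LD2, and 13.52, 13.75 and 13.75 at LD4. In cat2, psaB read 13.82, 13.81 and 13.83 at high CO2, 13.92, 13.87 and 13.81 at SD2, 13.78, 13.75 and 13.75 at SD4, 13.72, 13.57 and 13.63 at LD2, and 13.74, 13.81 and 13.83 at LD4. The order of the groups was close to that of psaA on a smaller scale, on a probe set near the top of the signal range. psaB fell in Col-0 at SD2, with a difference of -0.21 ± 0.07 (adjusted p = 0.0486) and was lower in cat2 at LD2 than at SD2, with a difference of -0.23 ± 0.07 (adjusted p = 0.0345). The first call was lost without replicates 1 and 2 of Col-0 SD2 and replicates 1, 2 and 3 of Col-0 high CO2, left out in turn, where the difference was -0.14 to -0.23, with the 25S covariate (-0.21), with median centring (-0.12), with a replicate block (-0.21) and with the trend and robust options (-0.21). The second was lost without replicates 2 and 3 of cat2 LD2 and replicates 1 and 2 of cat2 SD2, left out in turn, where the difference was -0.20 to -0.23, and after further quantile normalization (-0.18).

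psaC encodes the iron-sulphur protein that passes electrons to ferredoxin, and it is transcribed with ndh genes. In Col-0, psaC read 9.80, 9.63 and 9.47 at high CO2, 9.58, 9.56 and 9.71 at SD2, 9.45, 9.50 and 9.62 at SD4, 9.18, 9.45 and 9.28 at LD2, and 9.84, 9.46 and 9.17 at LD4. In cat2, psaC read 9.80, 9.56 and 9.74 at high CO2, 9.58, 9.57 and 9.50 at SD2, 9.34, 9.70 and 9.60 at SD4, 9.15, 9.45 and 9.19 at LD2, and 9.46, 9.57 and 9.64 at LD4. The group mean was lowest at LD2 in both genotypes, and in both the LD2 arrays lay below all 3 high CO2 arrays. The Col-0 LD4 arrays spread from 9.17 to 9.84. psaC fell in cat2 at LD2, with a difference of -0.44 ± 0.13 (adjusted p = 0.0184). psaC lost this call without replicates 1 and 3 of cat2 LD2 and replicate 1 of cat2 high CO2, left out in turn, where the difference was -0.38 to -0.40, and with median centring (-0.38). psaI, a small membrane subunit, fell there, with a difference of -0.42 ± 0.10 (adjusted p = 0.00468), a call kept in 6 of 6 fits without 1 array.

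Of the 15 photosystem II genes 6, or 40%, were called at least once, beside 52.9% of all probe sets. The genes for the reaction centre protein D2 (psbD) and for the inner antenna proteins CP47 (psbB) and CP43 (psbC) were called in no comparison, nor were those for the smaller proteins psbF, psbH, psbI, psbK, psbM and psbZ. psbA encodes D1, the reaction centre protein that is replaced fastest in light. In Col-0, psbA read 12.61, 12.53 and 12.46 at high CO2, 12.83, 12.89 and 12.87 at SD2, 12.83, 12.75 and 13.01 at SD4, 12.56, 12.69 and 12.37 at LD2, and 12.66, 12.47 and 11.94 at LD4. In cat2, psbA read 12.51, 12.45 and 12.59 at high CO2, 12.80, 12.83 and 12.57 at SD2, 12.69, 12.86 and 12.76 at SD4, 12.34, 12.31 and 12.39 at LD2, and 12.31, 12.21 and 12.79 at LD4. Short-day air arrays lay above those of high CO2 in Col-0, and the lowest value of all was the third Col-0 LD4 array. psbA was lower in Col-0 at LD4 than at SD4, with a difference of -0.51 ± 0.14 (adjusted p = 0.0167). psbA lost this call without replicate 3 of Col-0 LD4 and replicate 3 of Col-0 SD4, left out in turn, where the difference was -0.30 to -0.44. Its difference in Col-0 between SD2 and high CO2, 0.33 ± 0.14 (adjusted p = 0.105), did not pass although the arrays did not overlap.

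psbJ, psbL and psbE lie in one cluster and encode small subunits, psbE being part of cytochrome b559. In Col-0, psbJ read 11.77, 11.35 and 11.61 at high CO2, 11.90, 12.03 and 11.97 at SD2, 11.83, 11.91 and 11.98 at SD4, 11.78, 11.78 and 11.89 at LD2, and 11.92, 11.61 and 11.86 at LD4. In cat2, psbJ read 11.79, 11.50 and 11.86 at high CO2, 11.98, 11.89 and 11.90 at SD2, 11.98, 11.88 and 12.02 at SD4, 11.78, 11.81 and 11.79 at LD2, and 11.56, 11.45 and 11.64 at LD4. SD2 and SD4 arrays lay above the high CO2 arrays of the same genotype, and the cat2 LD4 arrays were low. psbJ rose in Col-0 at SD2 by 0.39 ± 0.10 (adjusted p = 0.0076), a call lost without replicate 2 of Col-0 high CO2, where the difference was 0.28. In cat2 psbJ was lower at LD4 than at SD4, with a difference of -0.41 ± 0.10 (adjusted p = 0.00566), kept in 6 of 6 fits. In Col-0, psbL read 10.71, 10.41 and 10.49 at high CO2, 10.81, 10.85 and 10.84 at SD2, 10.77, 10.90 and 10.90 at SD4, 10.72, 10.71 and 10.71 at LD2, and 10.78, 10.56 and 10.77 at LD4. In cat2, psbL read 10.78, 10.40 and 10.82 at high CO2, 10.86, 10.92 and 10.83 at SD2, 10.85, 10.95 and 11.01 at SD4, 10.61, 10.78 and 10.68 at LD2, and 10.68, 10.43 and 10.46 at LD4. As for psbJ, the SD2 and SD4 arrays lay above the high CO2 arrays of the same genotype. psbL rose in Col-0 at SD2 by 0.29 ± 0.10 (adjusted p = 0.0339), a call lost without replicates 1, 2 and 3 of Col-0 SD2 and replicates 2 and 3 of Col-0 high CO2, left out in turn, where the difference was 0.23 to 0.31. In cat2 psbL was lower at LD4 than at SD4, with a difference of -0.41 ± 0.10 (adjusted p = 0.00528), kept in 6 of 6 fits. psbE rose in Col-0 at SD2 by 0.26 ± 0.08 (adjusted p = 0.0302). psbE lost this call without replicates 1 and 2 of Col-0 SD2 and replicates 2 and 3 of Col-0 high CO2, left out in turn, where the difference was 0.19 to 0.27.

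psbN and psbT neighbour each other on opposite strands, and PsbN acts in the assembly of photosystem II while PsbT is a small subunit. In Col-0, psbN read 9.05, 8.61 and 8.62 at high CO2, 9.62, 9.40 and 9.19 at SD2, 9.53, 9.02 and 9.69 at SD4, 8.57, 9.19 and 9.22 at LD2, and 9.00, 8.92 and 8.00 at LD4. In cat2, psbN read 8.87, 8.90 and 8.83 at high CO2, 8.78, 9.59 and 8.99 at SD2, 9.17, 9.48 and 9.84 at SD4, 8.87, 9.47 and 8.90 at LD2, and 8.77, 8.85 and 9.13 at LD4. It was the dimmest of the 15 probe sets on average, and its Col-0 LD4 arrays spread by 1 log2 unit. psbN was lower in Col-0 at LD4 than at SD4, with a difference of -0.77 ± 0.26 (adjusted p = 0.0457). psbN lost this call without replicate 3 of Col-0 LD4 and replicates 1 and 3 of Col-0 SD4, left out in turn, where the difference was -0.45 to -0.72, with median centring (-0.78) and with a replicate block (-0.77). In Col-0, psbT read 10.89, 9.91 and 10.12 at high CO2, 10.39, 10.31 and 10.78 at SD2, 10.77, 10.50 and 10.94 at SD4, 10.16, 10.57 and 10.30 at LD2, and 10.19, 10.19 and 9.89 at LD4. In cat2, psbT read 10.68, 10.29 and 10.44 at high CO2, 10.43, 10.71 and 10.66 at SD2, 10.34, 10.59 and 10.66 at SD4, 10.23, 10.43 and 10.07 at LD2, and 10.17, 10.04 and 10.38 at LD4. The first Col-0 high CO2 array stood well above the other 2, and the Col-0 LD4 arrays lay below all Col-0 SD4 arrays. psbT was lower in Col-0 at LD4 than at SD4, with a difference of -0.65 ± 0.19 (adjusted p = 0.0233). psbT lost this call without replicate 3 of Col-0 LD4 and replicates 1 and 3 of Col-0 SD4, left out in turn, where the difference was -0.54 to -0.63. psbM, a small subunit at the dimer interface, had the brightest of the photosystem II probe sets. In Col-0, psbM read 13.67, 13.53 and 13.68 at high CO2, 13.81, 13.82 and 13.77 at SD2, 13.80, 13.90 and 13.79 at SD4, 13.74, 13.86 and 13.64 at LD2, and 13.65, 13.25 and 13.84 at LD4. In cat2, psbM read 13.71, 13.32 and 13.77 at high CO2, 13.83, 13.80 and 13.88 at SD2, 13.82, 13.85 and 13.79 at SD4, 13.49, 13.79 and 13.68 at LD2, and 13.48, 13.50 and 13.51 at LD4. Apart from the second LD4 array in Col-0 and the second high CO2 array in cat2, its values stayed between 13.48 and 13.90, and it was called in no comparison.

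Of the 6 ATP synthase genes 1 was called, once, beside the 52.9% of all probe sets called at least once. atpB encodes the catalytic beta subunit, and its probe set was the brightest of the 43. In Col-0, atpB read 14.33, 14.26 and 14.33 at high CO2, 14.17, 14.16 and 14.21 at SD2, 14.34, 14.30 and 14.31 at SD4, 14.29, 14.32 and 14.28 at LD2, and 14.22, 14.25 and 14.21 at LD4. In cat2, atpB read 14.32, 14.30 and 14.32 at high CO2, 14.29, 14.30 and 14.27 at SD2, 14.27, 14.26 and 14.29 at SD4, 14.27, 14.22 and 14.21 at LD2, and 14.24, 14.28 and 14.28 at LD4. All 30 values lay between 14.16 and 14.34, close to the maxima of the arrays, 14.43 to 14.69, and atpB was called in no comparison. atpI encodes subunit a of the membrane part, and its probe set was the dimmest of the 6. In Col-0, atpI read 9.60, 8.84 and 8.74 at high CO2, 9.43, 9.14 and 9.64 at SD2, 9.63, 9.54 and 9.73 at SD4, 9.12, 9.63 and 9.12 at LD2, and 9.44, 9.52 and 8.60 at LD4. In cat2, atpI read 9.37, 9.38 and 9.35 at high CO2, 9.66, 9.42 and 9.53 at SD2, 9.51, 9.59 and 9.48 at SD4, 9.11, 9.33 and 8.86 at LD2, and 9.19, 9.30 and 9.35 at LD4. The Col-0 arrays spread from 8.74 to 9.60 at high CO2 and from 8.60 to 9.52 at LD4, and atpI was called in no comparison. atpH, which encodes the ring subunit c, was lower in Col-0 at LD4 than at SD4, with a difference of -0.37 ± 0.12 (adjusted p = 0.044). atpH lost this call without replicate 3 of Col-0 LD4 and replicates 1, 2 and 3 of Col-0 SD4, left out in turn, where the difference was -0.18 to -0.40, with the 25S covariate (-0.33) and after further quantile normalization (-0.32). atpA, atpE and atpF, for the alpha, epsilon and b subunits, were called nowhere.

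Of the 10 NDH genes 5, or 50%, were called at least once, beside 52.9% of all probe sets. ndhD, for a membrane subunit of the proton-pumping arm, fell after 2 days in long-day air in both genotypes. In Col-0, ndhD read 12.16, 11.94 and 11.94 at high CO2, 11.77, 11.80 and 11.91 at SD2, 11.76, 11.78 and 11.86 at SD4, 11.50, 11.71 and 11.55 at LD2, and 12.16, 12.00 and 11.96 at LD4. In cat2, ndhD read 12.22, 11.77 and 12.16 at high CO2, 11.90, 11.86 and 11.79 at SD2, 11.71, 11.92 and 11.86 at SD4, 11.44, 11.77 and 11.42 at LD2, and 11.91, 11.78 and 12.01 at LD4. LD2 was the lowest group in both genotypes, and by LD4 the values were back in the range of high CO2. The difference between LD2 and high CO2 was -0.43 ± 0.11 (adjusted p = 0.0122) in Col-0 and -0.50 ± 0.11 (adjusted p = 0.00185) in cat2. The cat2 call held in 6 of 6 fits and the Col-0 call was lost without replicate 1 of Col-0 LD2 and replicate 1 of Col-0 high CO2, left out in turn, where the difference was -0.35 to -0.38. From LD2 to LD4 ndhD rose in Col-0 by 0.45 ± 0.11 (adjusted p = 0.0279). ndhD lost this call without replicates 1 and 3 of Col-0 LD2 and replicates 1 and 2 of Col-0 LD4, left out in turn, where the difference was 0.39 to 0.47, and with median centring (0.43). The same step in cat2 was 0.35 ± 0.11 (adjusted p = 0.0987), which was not a call.

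ndhJ and ndhK encode subunits of the arm that faces the stroma and neighbour each other in the ndhC cluster. In Col-0, ndhJ read 10.34, 10.15 and 10.08 at high CO2, 10.20, 10.17 and 10.46 at SD2, 10.38, 10.35 and 10.59 at SD4, 9.97, 10.29 and 9.95 at LD2, and 10.33, 10.15 and 9.71 at LD4. In cat2, ndhJ read 10.46, 10.21 and 10.63 at high CO2, 10.27, 10.29 and 10.003 at SD2, 10.28, 10.33 and 10.28 at SD4, 9.998, 10.04 and 9.74 at LD2, and 9.92, 9.98 and 9.996 at LD4. Long-day values of cat2 lay below all 3 high CO2 arrays, and the same contrast in Col-0 overlapped. ndhJ fell in cat2, with a difference of -0.51 ± 0.14 (adjusted p = 0.0107) at LD2 and -0.47 ± 0.14 (adjusted p = 0.0218) at LD4. The LD2 call was lost without replicate 3 of cat2 LD2 and replicate 3 of cat2 high CO2, left out in turn, where the difference was -0.41 to -0.42, and the LD4 call without replicate 1 of cat2 LD4 and replicates 1 and 3 of cat2 high CO2, left out in turn, where the difference was -0.37 to -0.45. In Col-0, ndhK read 9.66, 9.60 and 9.38 at high CO2, 9.69, 9.59 and 10.002 at SD2, 9.74, 9.85 and 10.09 at SD4, 9.31, 9.79 and 9.44 at LD2, and 9.74, 9.61 and 9.00 at LD4. In cat2, ndhK read 9.84, 9.66 and 9.93 at high CO2, 9.62, 9.57 and 9.59 at SD2, 9.55, 9.87 and 9.77 at SD4, 9.31, 9.39 and 9.18 at LD2, and 9.40, 9.46 and 9.59 at LD4. As for ndhJ, cat2 values at LD2 and LD4 were below those at high CO2. ndhK fell in cat2, with a difference of -0.52 ± 0.15 (adjusted p = 0.0191) at LD2, a call lost without replicate 3 of cat2 LD2 and replicates 1 and 3 of cat2 high CO2, left out in turn, where the difference was -0.46 to -0.50, and the interaction of genotype and air at LD2 was -0.49 ± 0.22 (adjusted p = 0.853).

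ndhG, for another membrane subunit, rose in Col-0 at SD2. In Col-0, ndhG read 7.73, 7.45 and 7.33 at high CO2, 8.08, 7.86 and 8.12 at SD2, 7.80, 7.78 and 8.07 at SD4, 7.62, 7.95 and 7.64 at LD2, and 8.04, 7.63 and 7.21 at LD4. In cat2, ndhG read 7.74, 7.96 and 7.55 at high CO2, 7.72, 7.79 and 7.74 at SD2, 7.55, 7.93 and 7.84 at SD4, 7.75, 7.82 and 7.56 at LD2, and 7.74, 7.77 and 7.80 at LD4. The 3 Col-0 SD2 arrays lay above the 3 high CO2 arrays, and the cat2 groups overlapped. The difference was 0.52 ± 0.16 (adjusted p = 0.0219). ndhG lost this call without replicates 1 and 3 of Col-0 SD2 and replicates 2 and 3 of Col-0 high CO2, left out in turn, where the difference was 0.43 to 0.49. ndhF, for a membrane subunit at the end of the proton-pumping arm, gave 3 calls, but its probe set was at the bottom of the signal range. In Col-0, ndhF read 3.67, 3.77 and 3.81 at high CO2, 3.95, 3.97 and 4.17 at SD2, 3.87, 3.83 and 3.90 at SD4, 3.59, 3.88 and 3.72 at LD2, and 3.89, 3.76 and 3.70 at LD4. In cat2, ndhF read 3.77, 3.89 and 3.80 at high CO2, 3.63, 3.84 and 3.78 at SD2, 3.80, 3.77 and 3.87 at SD4, 3.72, 3.89 and 3.61 at LD2, and 3.64, 3.73 and 3.76 at LD4. The Col-0 SD2 arrays were the highest of the 30, and all others lay between 3.59 and 3.90. ndhF was higher in Col-0 at SD2 than at high CO2 by 0.28 ± 0.08 (adjusted p = 0.0211), lower in cat2 than in Col-0 at SD2, with a difference of -0.28 ± 0.08 (adjusted p = 0.0291), and lower in Col-0 at LD2 than at SD2, with a difference of -0.30 ± 0.08 (adjusted p = 0.0212). All 3 calls rest on the same 3 Col-0 SD2 arrays and each was lost without the third, where the differences were 0.21, -0.21 and -0.23. The first was also lost without replicate 1 of Col-0 high CO2 (0.24), the second without replicate 1 of cat2 SD2 (-0.22), and the third without replicate 1 (-0.23) or 3 (-0.29) of Col-0 LD2. With a mean below 5 on the log2 scale ndhF was not tested in fits that left dim probe sets out. ndhI, for an iron-sulphur subunit, had the brightest of the 10 probe sets. In Col-0, ndhI read 13.62, 13.54 and 13.63 at high CO2, 13.58, 13.50 and 13.69 at SD2, 13.67, 13.69 and 13.65 at SD4, 13.69, 13.69 and 13.61 at LD2, and 13.73, 13.55 and 13.68 at LD4. In cat2, ndhI read 13.61, 13.49 and 13.63 at high CO2, 13.66, 13.65 and 13.60 at SD2, 13.71, 13.71 and 13.63 at SD4, 13.62, 13.57 and 13.54 at LD2, and 13.64, 13.62 and 13.62 at LD4. The 30 values lay between 13.49 and 13.73, and neither ndhI nor ndhA, ndhC, ndhE or ndhH was called.

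rbcL, for the large subunit of Rubisco, differed in pattern from the thylakoid genes. In Col-0, rbcL read 10.84, 10.74 and 10.29 at high CO2, 10.47, 10.54 and 10.55 at SD2, 10.47, 10.42 and 10.58 at SD4, 10.71, 11.02 and 10.88 at LD2, and 10.83, 11.01 and 10.07 at LD4. In cat2, rbcL read 10.38, 10.51 and 10.43 at high CO2, 10.32, 10.23 and 10.41 at SD2, 10.33, 10.58 and 10.31 at SD4, 10.79, 10.94 and 10.45 at LD2, and 10.56, 10.56 and 10.50 at LD4. LD2 arrays lay above SD2 arrays in both genotypes without overlap, where most other members were lower in long days. The differences, 0.35 ± 0.17 (adjusted p = 0.205) in Col-0 and 0.41 ± 0.17 (adjusted p = 0.106) in cat2, were not called, and rbcL was called in no comparison. Over the 30 arrays its median correlation with the other 42 members was -0.04.

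Counted over the 43 members, transfer of Col-0 to short-day air for 2 days gave 10 calls, or 23.3%, beside 20.0% of all 22746 probe sets, so the share was near the background. The direction was not even: 9 of the 43 were called higher, where 9.48% of all probe sets were called higher, and psaB was lower. The 9 were petG, petN, petL, ndhG, psbJ, psaJ, psbL, ndhF and psbE. In the same comparison the mesophyll gene RCA fell, with a difference of -0.16 ± 0.06 (adjusted p = 0.0442), and the guard cell gene FAMA fell, with a difference of -0.46 ± 0.15 (adjusted p = 0.0323). The other 3 markers were not called, with SBPASE at 0.00, PYK10 at 0.18 and SAG29 at 0.49, and the part of the markers in the result was not tested. With arrays centred on their medians the split was 14 higher and 0 lower, and after further quantile normalization 9 and 3. The count fell to 6 without replicate 1 of Col-0 SD2 or replicate 3 of Col-0 high CO2, and to 5 without replicate 2 of Col-0 high CO2. At SD4 the 3 calls, petG, petL and psaJ, all higher, were 6.98% of the members, beside 2.55% of all probe sets. The count was 1 without replicate 2 or 3 of Col-0 SD4 or replicate 2 or 3 of Col-0 high CO2, and 5 without replicate 1 of Col-0 high CO2. At this time 35 of the 43 members were above their high CO2 mean, with a member median of 0.22 beside -0.00 for all probe sets, and 20 members (46.5%) were higher without overlap beside 11.0% of all. In long-day air Col-0 had 2 calls at LD2, petN higher and ndhD lower, beside 11.5% of all probe sets, and 0 at LD4 beside 16.3%. The LD2 count was 0 without replicate 1 of Col-0 LD2 and 1 without any of replicates 2 and 3 of Col-0 LD2 and replicates 2 and 3 of Col-0 high CO2. At LD4 the member with the smallest p was psaA, -0.35 ± 0.13 (adjusted p = 0.0706), 5 members had an unadjusted p below 0.05, and the count was 1 without replicate 3 of Col-0 LD4 or replicate 1 of Col-0 high CO2 and 2 without replicate 2 of Col-0 LD4.

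In cat2, transfer to short-day air gave fewer calls than the background: petL at SD2, beside 17.7% of all probe sets, and petL and petG at SD4, beside 12.4%. The SD2 count was 2 without replicate 2 of cat2 high CO2, and the SD4 count 1 without replicate 2 or 3 of cat2 SD4. Members above their high CO2 mean numbered 30 of 43 at SD2 and 25 at SD4, beside 43.5% and 45.7% of all probe sets. Higher without overlap were 20.9% of the members at SD2 and 27.9% at SD4, beside 12.2% and 12% of all probe sets. Lower without overlap were 6.98% of the members at each time, beside 18.6% and 13.4%. In long-day air there were 8 calls at LD2, or 18.6%, beside 20.2%: petN higher, and ndhK, ndhJ, ndhD, psaC, psaA, psaI and petB lower. The count was 5 without replicate 2 of cat2 LD2 and 4 without replicate 3 of cat2 LD2 or replicate 1 or 3 of cat2 high CO2. Members below high CO2 numbered 32 of 43 at LD2, with a median of -0.11 beside 0.01 for all probe sets. In the same comparison the mesophyll gene SBPASE fell, with a difference of -0.57 ± 0.11 (adjusted p = 0.000539), the other mesophyll marker RCA read 0.03 ± 0.06 (adjusted p = 0.749), and the senescence gene SAG29 rose by 0.66 ± 0.20 (adjusted p = 0.02). The guard cell gene FAMA fell there, with a difference of -0.43 ± 0.15 (adjusted p = 0.0429), the root gene PYK10 was not called (0.13), and the part of these markers in the result was not tested. Against high CO2 SBPASE was also called lower in Col-0 at LD2 (-0.35) and LD4 (-0.35) and in cat2 at LD4 (-0.34), and FAMA in cat2 at SD2 (-0.51) and SD4 (-0.47). At LD4 ndhJ and psaJ were lower, beside 14.7%, and 1 call was left without replicate 1 of cat2 LD4 or replicate 1 or 3 of cat2 high CO2. The interaction of genotype with air had 0 called members at SD2, SD4, LD2 and LD4, beside backgrounds of 6.01%, 0.892%, 0.185% and 0.123%. The members with the smallest p were ndhF (-0.35 ± 0.12, adjusted p = 0.0843), psaI (-0.32 ± 0.14, adjusted p = 0.673), ndhK as given above, and psbJ (-0.39 ± 0.14, adjusted p = 0.449), and 5, 1, 1 and 3 members had an unadjusted p below 0.05. The responses of the 2 genotypes to air were therefore not shown to differ for any member. Most members leaned negative in this interaction at SD4 (38 of 43) and LD2 (40 of 43), beside 56.6% and 55.1% of all probe sets. At SD2 25 and at LD4 26 of 43 were negative, beside 58.9% and 51.2%. These interactions share the high CO2 arrays of both genotypes and so are not independent of each other.

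Long days set against short days in air gave 15 member calls, all of them lower in long days. In Col-0 at day 2 ndhF was the single call, beside 11.8% of all probe sets, and it was lost without replicate 1 or 3 of Col-0 LD2 or replicate 3 of Col-0 SD2. In Col-0 at day 4 there were 7 calls, or 16.3%, beside 13.5% in both directions and 6.35% lower: psbN, psbT, psaJ, psbA, petL, psaA and atpH. Without replicate 3 of Col-0 LD4, the array that stood apart, 4 members were called, and psbN, psbT, psbA, psaA and atpH were not among them. The count was 3 without replicate 1 or 3 of Col-0 SD4 and 11 without replicate 1 of Col-0 LD4. In cat2 at day 2 psaA, petL and psaB were called, beside 16.1%, with 6 calls without replicate 1 of cat2 LD2 and 1 call without replicate 3 of cat2 LD2 or replicate 1 or 2 of cat2 SD2. In cat2 at day 4 petL, psaJ, psbJ and psbL were called, beside 11.8%. Few members passed, but most leaned the same way: 38 of 43 members were lower in long days in Col-0 at day 4 and 41 of 43 in cat2 at day 2. The member medians were -0.25 and -0.20, beside 0.01 and 0.03 for all probe sets, of which 47.3% and 43% were lower. Lower without overlap were 18 members (41.9%) in Col-0 at day 4 beside 12.0% of all probe sets, and 27 members (62.8%) in cat2 at day 2 beside 15.3%. The lean was weaker in the other 2 comparisons. In Col-0 at day 2, 33 of 43 members were lower, with a median of -0.12 beside 0.00 for all probe sets. In cat2 at day 4, 32 of 43 were lower, with a median of -0.10 beside 0.03. Of all probe sets 49.3% and 43.8% were lower. Lower without overlap were 10 members (23.3%) and 14 members (32.6%), beside 15.4% and 12.5% of all probe sets. In cat2 at day 4 the photosystem I genes had a median of 0.01, with 3 of 5 higher. The mesophyll gene SBPASE was lower in Col-0 at day 4 (-0.39 ± 0.11, adjusted p = 0.0136) and in cat2 at day 2 (-0.44 ± 0.11, adjusted p = 0.00477). It was also lower in Col-0 at day 2 (-0.35 ± 0.11, adjusted p = 0.031). In cat2 at day 4 its difference was -0.23 ± 0.11 (adjusted p = 0.176). The other mesophyll gene RCA read 0.02 to 0.16 in the 4 comparisons, and neither it nor FAMA, PYK10 and SAG29 was called. The part of SBPASE in the lean of the members was not tested. The members share arrays and vary together between them, so these counts are not made of independent genes. In cat2 at day 2 the 2 members that were not lower were rbcL and petN. The interaction of genotype with day length had 0 called members at day 2 and day 4, beside 7.72% and 0.862%, with 6 and 2 members at an unadjusted p below 0.05 and psaA the member with the smallest p in both. Each count was 1 without a single array, replicate 3 of Col-0 SD2 at day 2 and replicate 2 of Col-0 LD4 at day 4.

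Between the genotypes in one condition, few members were called. At high CO2 0 members were called, beside 0.0132% of all probe sets, 0 had an unadjusted p below 0.05, and psaI had the smallest p (0.18 ± 0.10, adjusted p = 0.788). At SD2 psaA was higher and petN and ndhF lower in cat2, beside 14.2%, a count that was 0 without replicate 1 of cat2 SD2 and 1 without replicate 2 of Col-0 SD2 or replicate 2 or 3 of cat2 SD2. At SD4, LD2 and LD4 0 members were called, beside 1.69%, 1.15% and 0.725%, and 0, 0 and 4 had an unadjusted p below 0.05. The smallest p belonged to psaA at SD4 (-0.21 ± 0.13, adjusted p = 0.808), to atpA at LD2 (-0.18 ± 0.09, adjusted p = 0.455) and to psaA at LD4 (0.37 ± 0.13, adjusted p = 0.235), where 1 member was called without replicate 2 of Col-0 LD4. Most members leaned lower in cat2 at SD4 (34 of 43) and LD2 (38 of 43), beside 53.3% and 50.9% of all probe sets. The member medians were -0.06 at each, beside -0.01 and -0.00 for all probe sets. Lower without overlap were 16.3% of the members at SD4 and 9.3% at LD2, beside 6.63% and 10.3%. At high CO2 32 of 43 were higher in cat2, beside 56% of all probe sets, and at SD2 and LD4 24 and 22 were higher, beside 41.1% and 52.8%. Day 4 against day 2 in short days gave 0 calls in Col-0, beside 0.0484%, and 0 in cat2, beside 0.95%, with 3 and 0 members at an unadjusted p below 0.05, and psaA had the smallest p in both, 0.42 ± 0.13 (adjusted p = 0.279) and -0.20 ± 0.13 (adjusted p = 0.796). In long days ndhD rose in Col-0, beside 1.94%, and psaJ fell in cat2, beside 1.7%. The count in Col-0 was 0 without replicate 1 or 3 of Col-0 LD2 or replicate 2 of Col-0 LD4, without replicate 1 of Col-0 LD4 petN was called lower in place of ndhD, and the count in cat2 was 0 without any of the 3 LD2 arrays or replicate 1 or 2 of cat2 LD4.

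**Figure D3:**
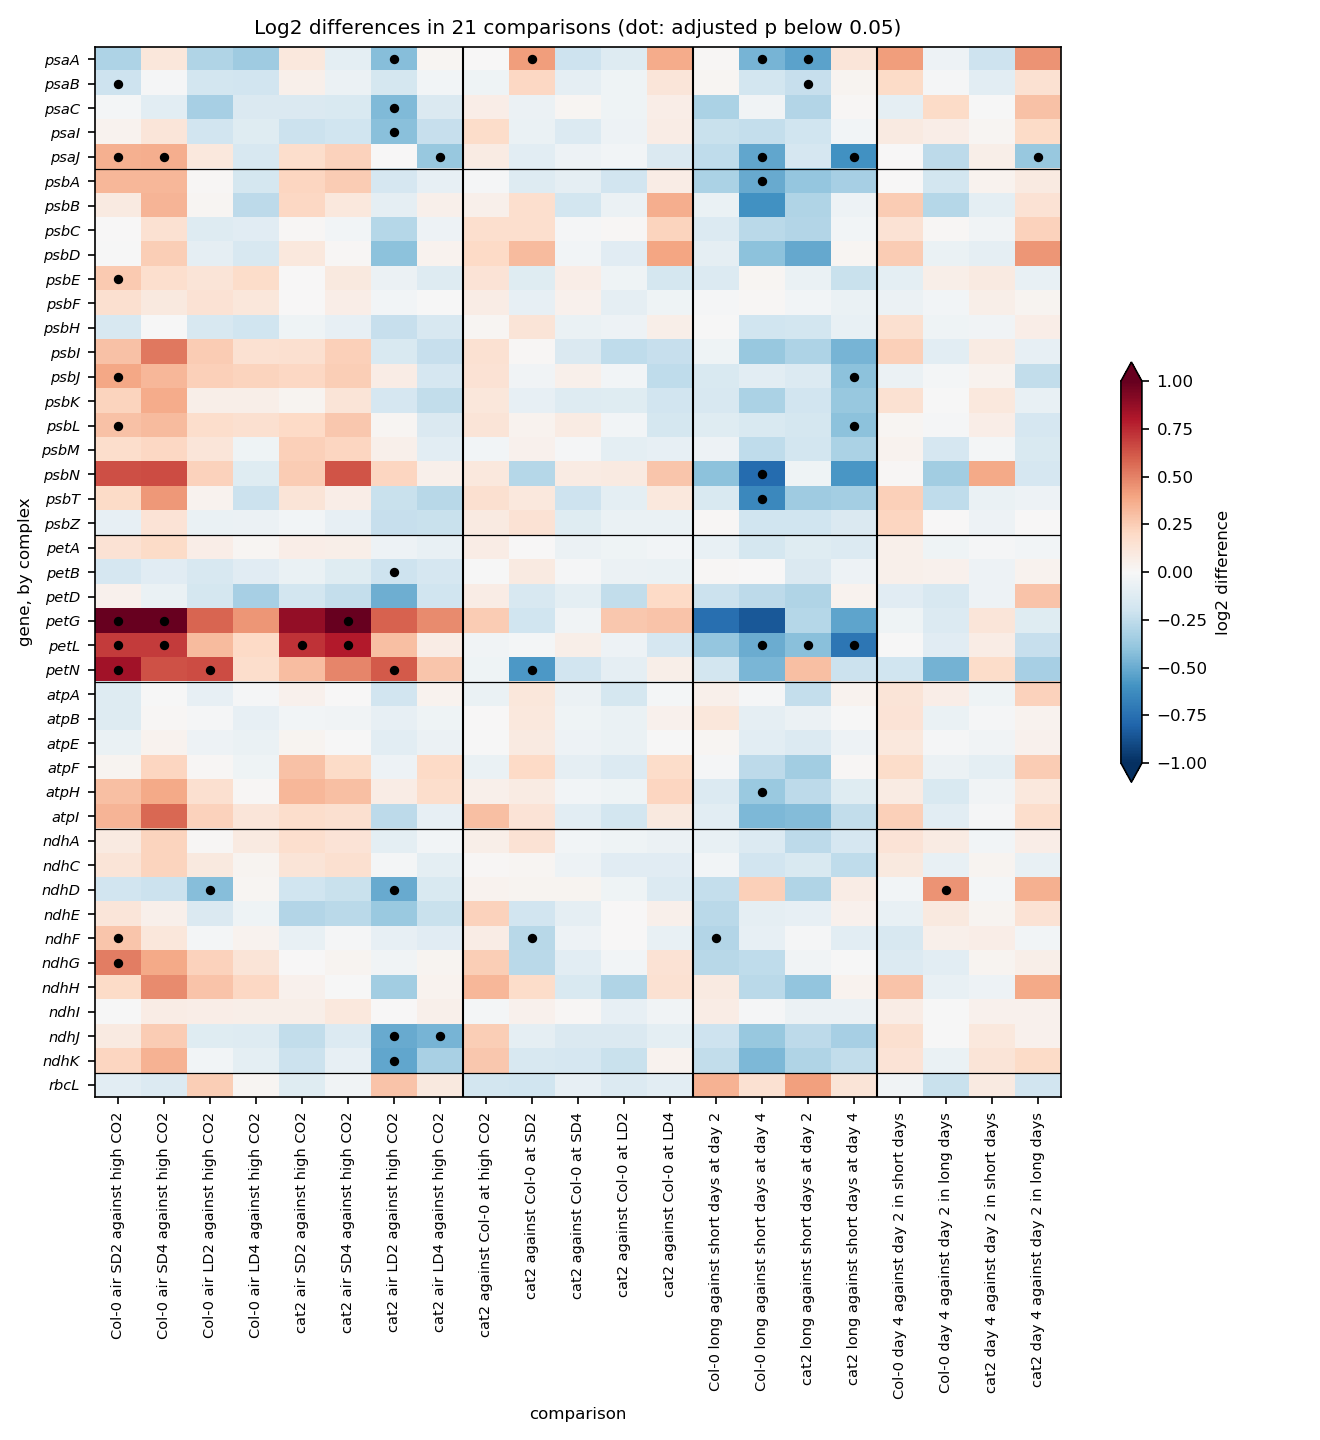
Log2 differences of the 43 members (rows) in the 21 comparisons of a pair of groups (columns), with a dot where the adjusted p in limma was below 0.05. The 48 dots lie on 21 members, and the columns for long against short days hold 15 dots, all on negative values.

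The spread between replicate arrays varied with the level of the probe set. Of the 43 members, 32 had means in the top 10% of probe sets and 29 in the top 5%, and 2 were below the median. The SD within groups fell as the mean rose (Spearman rho -0.65 and Pearson r -0.53 across the 43 members, which share the same arrays), and its median over members was 0.15, beside 0.14 for all probe sets. Bright probe sets such as those of atpB and ndhI had small spreads and small differences, and the petG probe set had large ones of both kinds. The share of a member's variance that lay between the 10 groups ran from 19.7% for ndhE to 84.0% for psaJ, with a median of 52.1% beside 51.9% over all probe sets.

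**Figure D4:**
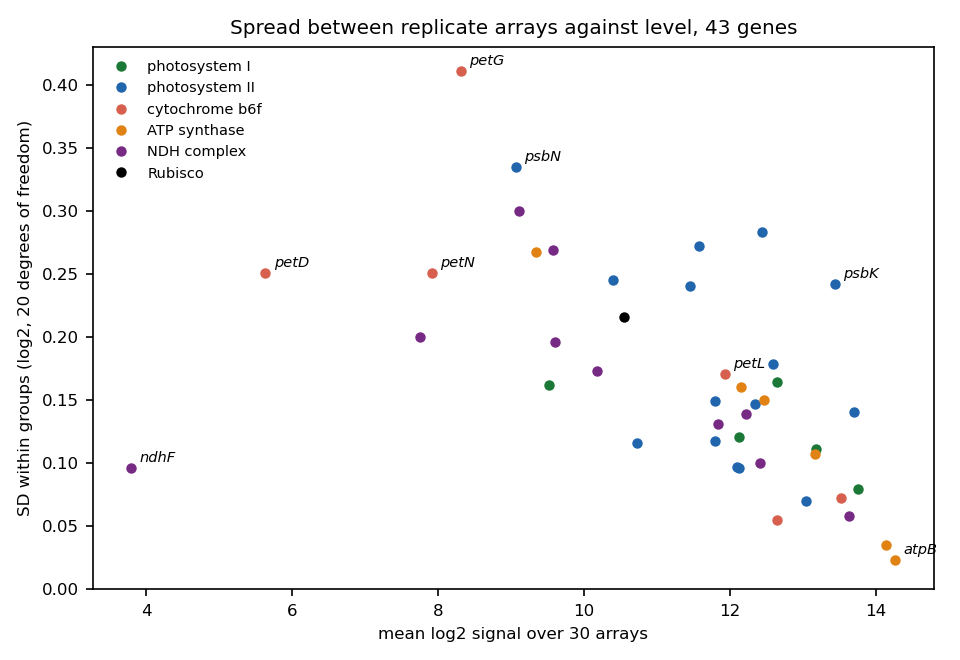
SD within groups (log2, 20 residual degrees of freedom) of each of the 43 members against its mean log2 signal over 30 arrays, coloured by complex. The SD falls with the mean (Spearman rho -0.65), with petG above the rest of the dim members and atpB at the lower right.

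Members that lie in one gene cluster were compared with the rest, taking the clusters from general knowledge of plastid transcription units. Over the 30 arrays, which all members share, the first principal component took up 48.6% of the members' variance, and 50.5% of it once group means had been removed. The 903 pairs had a median Pearson correlation of 0.37, the 56 pairs within a cluster 0.48, the 847 other pairs 0.36, and the 33 pairs of members next to each other in the gene order of the annotation 0.68. With group means removed these medians were, in the same order, 0.34, 0.52, 0.33 and 0.47, so neighbours no longer stood above pairs within a cluster. The closest pairs were psbK with psbI (0.96), psbC with psbD, whose reading frames overlap (0.95), ndhJ with ndhK (0.92), psaA with psaB (0.91), psbJ with psbL (0.90) and atpH with atpI (0.88). With group means removed these 6 correlations ran from 0.77 to 0.97. petL, petG and psaJ form one cluster, and all 3 rose in Col-0 at SD2, as did psbE, psbL and psbJ, 3 of the 4 genes of the psbE cluster. petL correlated with psaJ at 0.78 and with petG at 0.71, and psaJ with petG at 0.48. Within groups these were 0.55, 0.21 and -0.07, so that psaJ and petG were alike between groups but not between arrays of a group. The best partners of petL were psbJ (0.82) and psbL (0.82), of the neighbouring cluster on the other strand. The psbB cluster was looser: psbB with psbT read 0.74 and psbH with petB 0.80, but psbB with petB 0.05. In the ndhH cluster psaC correlated with ndhD at 0.80 and with ndhE at 0.72, but with ndhI at 0.04. The lowest correlation of any pair was between petB and petN (-0.60), and psbM and psbD, which are next to each other in gene order but on opposite strands, stood at -0.14.

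**Figure D5:**
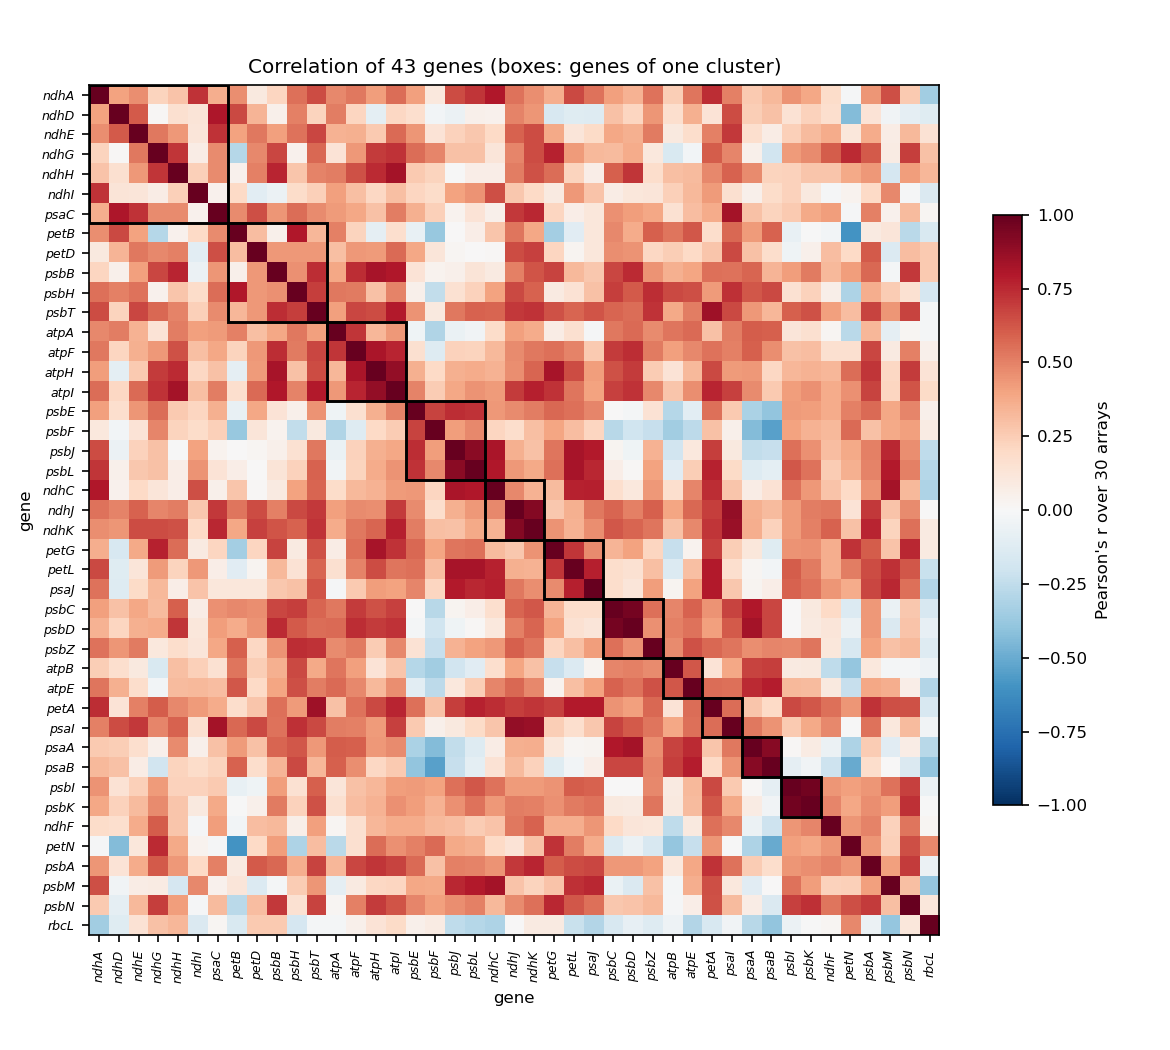
Pearson correlations between the 43 members over 30 arrays, ordered by cluster with the largest first, and with boxes around genes of one cluster. Correlations are high in the psbK-psbI, psbD-psbC and psbJ-psbL blocks (0.96, 0.95 and 0.90). The row of rbcL runs from -0.39 with psaB to 0.48 with petN (median -0.04).

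The other plastid genes with a probe set, 4 rpo, 15 ribosomal protein and 7 further genes, were counted beside the photosynthesis genes. In Col-0 at SD2 0 of these 26 genes were higher and 8 lower than at high CO2, beside 9 higher and 1 lower of the 43 members. Of all probe sets 20.0% were called in that comparison, and 9.48% were called higher. The polymerase genes rpoC1 and rpoC2 fell, with differences of -0.94 ± 0.24 (adjusted p = 0.00718) and -0.83 ± 0.24 (adjusted p = 0.0147), and the ribosomal protein genes rpl22, rps19 and rps3, which neighbour each other, with differences of -1.04 ± 0.25 (adjusted p = 0.00506), -0.79 ± 0.16 (adjusted p = 0.00129) and -0.76 ± 0.18 (adjusted p = 0.00391). In cat2 at LD2 7 of the 26 were lower and 0 higher, led by rpl22 (-1.01 ± 0.25, adjusted p = 0.00599), rps19 (-0.82 ± 0.16, adjusted p = 0.000629) and rps3 (-0.68 ± 0.18, adjusted p = 0.00852), and there 7 members were lower as well. The share called over all probe sets was 20.2% there, both directions together. Between genotypes at SD2, 8 of the 26 were higher in cat2 and 0 lower, among them rpl22 (1.00 ± 0.25, adjusted p = 0.00836), rpl14 (0.97 ± 0.30, adjusted p = 0.0343), rps3 (0.81 ± 0.18, adjusted p = 0.00309) and rpoA (0.34 ± 0.11, adjusted p = 0.0446), while 1 member was higher and 2 lower. Over all probe sets 14.2% were called between genotypes at SD2. Their day length responses at day 2 differed between genotypes for rpl22 (-1.13 ± 0.35, adjusted p = 0.0499), rps19 (-0.95 ± 0.22, adjusted p = 0.00874), rps3 (-0.90 ± 0.25, adjusted p = 0.0261) and rps2 (-0.59 ± 0.18, adjusted p = 0.0469), where 0 members and 7.72% of all probe sets passed. The calls in Col-0 at SD2, between genotypes at SD2 and in this interaction use the same 3 Col-0 SD2 arrays. They are therefore not independent of each other. The second of these arrays held the lowest of the 30 values for rpoC1, rpoC2, rpl22, rps19 and rps3. On the 3 arrays rpl22 read 10.53, 9.70 and 10.99. Whether these calls hold without the second array is not reported here. In long against short days in Col-0, rpoC1 was higher (0.76 ± 0.24, adjusted p = 0.0391) and rpl33 lower (-0.38 ± 0.11, adjusted p = 0.024) at day 2, and rps18 was lower at day 4 (-0.53 ± 0.13, adjusted p = 0.0074). In cat2 at day 2, 4 of the 26 were lower and 0 higher, beside 16.1% of all probe sets called. The 4 were led by rps19 (-0.61 ± 0.16, adjusted p = 0.00772), rps3 (-0.53 ± 0.18, adjusted p = 0.0419) and rps14 (-0.49 ± 0.14, adjusted p = 0.0168). In cat2 at day 4, rps18 (-0.45 ± 0.13, adjusted p = 0.0267) and rpl32 (-0.35 ± 0.11, adjusted p = 0.0347) were lower and rps2 was higher (0.40 ± 0.13, adjusted p = 0.0439). Against high CO2 in cat2, rps2 was also lower at SD2 (-0.39) and SD4 (-0.55), and rps18 (-0.49) and rpl33 (-0.34) at LD4, all called. The 7 further genes, clpP, accD, matK, cemA, ccsA, ycf3 and ycf4, were called in no comparison. Of all probe sets 52.9% were called at least once in a comparison of a pair of groups.

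Nuclear genes for the same complexes were few on the list, 13 with a probe set of their own. NDHL, a subunit of the NDH complex, rose in Col-0 at SD2 by 0.69 ± 0.15 (adjusted p = 0.00276) and was lower at LD2 than at SD2, with a difference of -0.53 ± 0.15 (adjusted p = 0.021). NDHN, from the stromal arm, was lower in long days at day 2 in Col-0 (-0.51 ± 0.13, adjusted p = 0.0117) and in cat2 (-0.54 ± 0.13, adjusted p = 0.00568). NDHS, which binds ferredoxin, was lower in long days in cat2 at day 2, with a difference of -0.70 ± 0.10 (adjusted p = 2.41e-05). NDHS rose from LD2 to LD4 in Col-0 (0.41 ± 0.10, adjusted p = 0.0359) and in cat2 (0.47 ± 0.10, adjusted p = 0.0175), and differed between genotypes in its day length response at day 2 (-0.52 ± 0.14, adjusted p = 0.0265). NDHS was also called against high CO2 in cat2, higher at SD2 (0.31) and lower at LD2 (-0.39), and was higher in cat2 than in Col-0 at SD2 (0.34). The step from LD2 to LD4 was a rise for ndhD as well, called in Col-0. The light-harvesting gene LHCB4.3 was higher than at high CO2 in all 8 air groups, from 0.55 in Col-0 SD4 to 1.14 in cat2 LD4, all called. Its relative LHCB4.2 was higher in long than in short days at day 4 in Col-0 (0.48 ± 0.07, adjusted p = 3.87e-05) and cat2 (0.40 ± 0.07, adjusted p = 0.000229), where most members were lower. LHCB4.2 was also higher in Col-0 at LD4 than at high CO2 (0.46), in Col-0 in long days at day 2 (0.26), from LD2 to LD4 in Col-0 (0.32) and cat2 (0.33), and in cat2 over Col-0 at SD2 (0.21), all called. It was lower than at high CO2 in cat2 at SD4 (-0.28) and LD2 (-0.21), and its day length response at day 2 differed between genotypes (-0.34 ± 0.10, adjusted p = 0.0323). Of the other photosystem II genes PSB27 was higher in Col-0 at SD2 (0.27) and LD4 (0.24), PSBW in Col-0 at LD4 (0.18), and PSBY was lower in cat2 at SD2 (-0.23) and higher in long days in cat2 at day 4 (0.22), all called. ATPC2, for a gamma subunit of ATP synthase, fell in Col-0 at SD2, LD2 and LD4 (-0.32, -0.45 and -0.32) and in cat2 at LD2 (-0.50). CRR28, which acts in the editing of ndh transcripts, ndhD among them, was lower in Col-0 at LD4 than at SD4, with a difference of -0.51 ± 0.14 (adjusted p = 0.0136), and CRR21, needed for another edit in ndhD, was called in no comparison. Of 11 mitochondrial genes 5 were higher and 1 lower in Col-0 at SD2, where 20.0% of all probe sets were called and 9.48% called higher. The higher genes were led by cox1 (0.49 ± 0.14, adjusted p = 0.0144), nad4L (0.35) and nad4 (0.31), and nad9 was lower (-0.50 ± 0.14, adjusted p = 0.0147). Against high CO2 cox1 was also higher in cat2 at SD2 (0.46), SD4 (0.69) and LD2 (0.63), nad4 in cat2 at SD2 (0.36) and SD4 (0.33), cox2 in Col-0 (0.37) and cat2 (0.30) at LD2, and nad6 in Col-0 at LD2 (0.31) and LD4 (0.27) and cat2 at LD2 (0.25), all called. At SD2 nad9 was higher (0.55) and nad1 (-0.54) and nad4L (-0.31) were lower in cat2 than in Col-0, and the air response of nad9 at SD2 differed between genotypes (0.81 ± 0.20, adjusted p = 0.017). In day length, nad4 was lower in long than in short days at day 4 in Col-0 (-0.31) and cat2 (-0.45), all called.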

How the data were processed

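The 30 arrays were Affymetrix ATH1 arrays, in 10 groups of 3. Per the submitters' processing notes, the authors computed the log2 signals by RMA with affy, whose version is not given in the sources used here. The deposited table held 22810 probe sets and was taken as it is. After 64 control probe sets had been set aside, 22746 were tested. In the array annotation 13513 probe sets had 1 gene, 503 had several and 8730 were not listed, and a gene was named only from the first kind. Plastid gene names and gene order came from RefSeq. No array was left out, and 0 sample columns were unused.

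One model with 10 group means was fitted to all 30 arrays in limma 3.58.1 (R 4.3.3, lmFit and eBayes), leaving 20 residual degrees of freedom. Comparisons were contrasts of these means, with Benjamini-Hochberg adjustment over all probe sets tested and calls at an adjusted p below 0.05. The script was tested on simulated data. Tables and figures were made with Python 3.11.15, pandas 2.3.3, numpy 2.4.6 and matplotlib 3.10.9. The number of arrays limits the precision.

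The members, gene lists and tests were chosen with earlier results of these data known. Members shown on every array were the brightest and dimmest of each complex and, for each comparison, up to 4 called in each direction with the largest differences. Without a call, the member with the smallest p was named. From the lists of other plastid, nuclear and mitochondrial genes a part of the called genes was named, without a fixed number for each comparison. Correlations are descriptions over 30 arrays.

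The same replicate numbers ran through all groups and the labels do not say that they mark anything shared. Alternatives were a replicate block, each array of a comparison left out in turn, the compared arrays alone, median centring, further quantile normalization, the 25S control as a covariate, a filter on means below 5, and the trend and robust options. Residuals of same-numbered arrays correlated above 0.1 in every pair for 2 comparisons, those between the genotypes at SD4 (0.31 to 0.63) and LD4 (0.22 to 0.45), where 0 members were called with and without the block.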

Additional observations from a re-analysis of the deposited data

How the results depend on the processing

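Of the 27 comparisons 15 kept their count of called members within 1.5 times under each of the 7 alternatives other than leaving out arrays, and none of the 48 called differences changed sign under any of them in which it was tested. The differences that were not called and those of other genes were not compared across settings. Fits on the compared arrays alone gave counts of 1 for Col-0 at SD4, 1 for cat2 at SD4, 5 for cat2 at LD2 and 0 for cat2 at LD4 against high CO2, 1 for cat2 against Col-0 at SD2, 2 and 1 for long against short days in Col-0 at day 2 and day 4, 7 for cat2 at day 2, and 0 for day 4 against day 2 in long days in either genotype. Leaving dim probe sets out gave 3 for cat2 at SD2, and 0 and 5 for long against short days at day 2 in Col-0 and cat2. Median centring gave 3 for cat2 at SD2 and 0 for day 4 against day 2 in long days in Col-0. Further quantile normalization gave 2 for cat2 at SD2, 5 for long against short days in cat2 at day 2, 2 for day 4 against day 2 in long days in cat2, and 1 for the interaction of genotype with air at SD2. The 25S covariate gave 1 for cat2 at SD4, 1 for cat2 against Col-0 at SD2 and 0 for day 4 against day 2 in long days in cat2. The replicate block gave 2 for cat2 at SD2 and 2 for long against short days in Col-0 at day 2, and with it 46 of the 48 named calls passed. The causes were not tested, apart from the fewer arrays or probe sets that some fits hold by construction. The alternative of taking every probe set of a gene could not change a value, as each member had 1.

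Without 1 array in turn, the count for air against high CO2 ran from 5 to 10 in Col-0 at SD2, 1 to 5 at SD4, 0 to 2 at LD2 and 0 to 2 at LD4, and in cat2 from 1 to 2, 1 to 3, 4 to 8 and 1 to 3. It ran from 0 to 2 for cat2 against Col-0 at SD2 and 0 to 1 at LD4. For long against short days it ran from 0 to 1 and 3 to 11 in Col-0 and from 1 to 6 and 4 to 5 in cat2, at day 2 and day 4. For day 4 against day 2 in long days it ran from 0 to 1 in Col-0 and 0 to 1 in cat2, and for the interaction of genotype with day length from 0 to 1 at day 2 and 0 to 1 at day 4. In the other comparisons it was 0 throughout. Bright probe sets near the array maxima and ndhF, near the bottom of the range, limit what the arrays can show.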
